A study of Mus musculus with 7 samples.

Results

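Elastic fibers give skin, lung and artery their recoil, and 10 genes for their parts and assembly factors were followed through parental and αPD-L1-resistant mammary tumors. They encode the fibulins (Efemp1, Efemp2, Fbln1, Fbln2 and Fbln5), the fibrillins (Fbn1 and Fbn2), elastin (Eln) and a pair of microfibril-associated glycoproteins (Mfap4 and Mfap5). The 10 were chosen by gene family, with values of these libraries already known, so their differences between tumor groups are given as a description. They were part of the fits over all genes, and those outcomes are not independent support. All 10 were present among the 53465 genes of the table, and all 10 passed the filter on low counts that left 15645 genes. Efemp1 passed it only through the resistant tumors.

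The tumors grew from EMT6 cells, a carcinoma line of the mouse mammary gland, implanted orthotopically in young adult female BALB/c mice. EMT6-P denotes parental tumors given an IgG isotype control antibody (n = 3), and EMT6-PTR denotes tumors of the variant with acquired resistance given antibody to PD-L1 (n = 3). Each antibody was dosed at 250 μg per mouse every 3 days until the institutional endpoint. The resistant variant came from tumors that regrew under treatment and was kept under αPD-L1 in culture, so resistance, selection and ongoing antibody exposure cannot be told apart. A metastasis of the resistant variant under αPD-L1 made up the remaining library (n = 1), and the labels do not name its organ. The labels do not state which tumors came from separate animals, so p-values cover only the spread between these samples, which may be technical.

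In an elastic fiber, an elastin core is laid down on microfibrils of fibrillin. Fibulins bridge tropoelastin, fibrillin and the lysyl oxidases that crosslink the core, and fibroblasts, smooth muscle cells and endothelium are the usual makers. Latent TGF-β is stored on the same microfibrils.

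Levels are CPM, the estimated counts of a gene per 1000000 counts of its library, with library totals scaled by upper-quartile factors over all 7 libraries. Library totals ran from 20430110 to 25213472 estimated counts, and 13.8% of all counts in EMT6-PTR replicate 2 fell on the single gene CT010467.1. EMT6-PTR replicate 3 stood apart from the other primary tumors. Its summed fibroblast markers reached 21498 CPM against 5818 to 9533 CPM in the other 5 tumors. That sum was carried by Col3a1, Col1a2 and Dcn, while Thy1 (6.68 CPM) and Dpt (1.41 CPM) were at their lowest of the 6 tumors and Col1a1 (2755 CPM) was within the range of the others. Its smooth muscle and pericyte markers summed to 67.0 CPM against 684 to 1165 CPM, and its keratin gene Krt8 stood at 505 CPM against 1685 to 1898 CPM. EMT6-PTR replicate 1 carried 4459 CPM of skeletal muscle markers, and the other 5 tumors carried 4.34 to 624 CPM. Values without a library are given where leaving it out changes a gene's direction or its fold change by over 1.5 times.

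The upstream sequences of 3 fibulin genes are shown because Efemp1 and Efemp2 were the members whose tumor groups did not overlap, in opposite directions, and Fbln5 lay in a narrow range in all 6 primary tumors. Each line holds the 250 bases before the RefSeq transcription start, 5′ to 3′ on the gene's strand, in build GRCm38.p6. Capitals mark matches, on either strand, to 3 motifs. They are the GC box with the letters GGGCGG, the CCAAT box, and the binding motif of AP-1 factors with the letters TGANTCA. The TATA box, searched as TATAAA, and the motif of TEAD factors, searched as GGAATG, had no match in these 3 windows. The windows are chr11:28852955-28853204 on the plus strand for Efemp1, chr19:5473696-5473945 on the plus strand for Efemp2 and chr12:101819120-101819369 on the minus strand for Fbln5.
Efemp1: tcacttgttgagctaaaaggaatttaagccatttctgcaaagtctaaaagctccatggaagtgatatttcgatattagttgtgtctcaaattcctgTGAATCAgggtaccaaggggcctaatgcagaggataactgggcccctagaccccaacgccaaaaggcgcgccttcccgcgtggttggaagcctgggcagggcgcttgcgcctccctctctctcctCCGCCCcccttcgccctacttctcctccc
Efemp2: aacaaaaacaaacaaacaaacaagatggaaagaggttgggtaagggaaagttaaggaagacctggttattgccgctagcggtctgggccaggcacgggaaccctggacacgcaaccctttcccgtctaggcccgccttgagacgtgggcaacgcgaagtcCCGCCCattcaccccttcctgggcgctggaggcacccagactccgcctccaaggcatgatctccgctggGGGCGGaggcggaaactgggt
Fbln5: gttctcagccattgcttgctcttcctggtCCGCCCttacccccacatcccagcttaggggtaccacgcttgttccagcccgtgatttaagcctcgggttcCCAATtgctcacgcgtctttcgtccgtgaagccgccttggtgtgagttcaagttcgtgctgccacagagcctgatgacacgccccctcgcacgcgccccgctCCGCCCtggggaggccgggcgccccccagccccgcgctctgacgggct
The Efemp1 window held 1 GC box and 1 AP-1 motif. The Efemp2 window held 2 GC boxes. The Fbln5 window held 2 GC boxes and 1 CCAAT box and had the highest GC content of the 3, 65.2% against 59.2% for Efemp2 and 53.6% for Efemp1. Among all 32851 RefSeq windows of this length the median GC content was 52.4%. A GC box was present in 32.7% of all windows, a CCAAT box in 33.8%, the AP-1 motif in 6.75%, the TATA box in 12.4% and the TEAD motif in 12.6%. A window was at hand for 6 of the 10 members, these 3 with Fbln1, Fbln2 and Fbn1. Such matches describe letters only.

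Efemp1 encodes fibulin-3, a short fibulin of basement membranes and of the tissue around vessels. Its level was 0.0487, 0.0934 and 0.0472 CPM in EMT6-P replicates 1 to 3 and 0.873, 0.668 and 0.469 CPM in EMT6-PTR replicates 1 to 3. Every resistant tumor was above every parental tumor, yet the gene stayed at the edge of detection in all 6. The rounded counts behind these values were 1, 2 and 1 against 20, 12 and 12. Pooled over each group they gave a ratio of 10.4 (95% exact interval 3.80 to 40.0, covering counting error only). The interval leaves out the spread between tumors. Because Efemp1 passed the filter only through the resistant tumors, the ratio and its interval are a description and no evidence of a difference. The fitted log2 fold change was 3.29 ± 0.53 (SE, n = 3 per group). In the metastasis the level was 11.9 CPM from 298 counts, a ratio of 18.0 to the pooled resistant tumors (13.1 to 25.3, again counting error only). The gene lies at chr11:28853204-28926743.

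Efemp2 encodes fibulin-4, which brings lysyl oxidase to tropoelastin and is needed for elastic fibers to form. It was at 139, 143 and 137 CPM in EMT6-P and at 110.2, 111 and 98.0 CPM in EMT6-PTR. The 3 resistant tumors lay below the 3 parental tumors with a gap between the groups. The log2 fold change was -0.39 ± 0.12 (SE, n = 3 per group), the smallest standard error among the 10 members, and stayed between -0.42 and -0.34 when any 1 tumor was left out. The metastasis, at 100.2 CPM, fell inside the range of the resistant tumors. Efemp2 (chr19:5473954-5482517) overlaps Mus81 on the opposite strand, which held 309 to 335 estimated counts in EMT6-P and 172 to 384 in EMT6-PTR. Libraries were stranded, and the strand setting of the counting is not given in the sources used here.

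The other fibulins had overlapping groups. Fbln1, a large fibulin of loose connective tissue, was at 38.1, 44.2 and 49.1 CPM in EMT6-P and at 33.0, 90.1 and 30.5 CPM in EMT6-PTR. Replicate 2 alone lay above the parental tumors and the other resistant tumors lay below them. On the log2 scale the fold change was 0.22 ± 0.43 (SE) with all tumors and -0.46 without EMT6-PTR replicate 2. Fbln1 stood at 25.2 CPM in the metastasis, under all 6 tumors.

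Fbln2, a fibulin that binds fibrillin-1 and tropoelastin in microfibrils, had the highest level per exon length of all members in every primary tumor. It was at 735, 956 and 728 CPM in EMT6-P and at 1019.6, 833 and 553 CPM in EMT6-PTR. The group means were 806 ± 129.5 and 802 ± 235 CPM (SD, n = 3 each), and the resistant tumors spread on both sides of the parental range. The log2 fold change of -0.01 ± 0.26 (SE) became 0.20 without EMT6-PTR replicate 3, and 0.13 when EMT6-P replicate 2 was left out. The metastasis had 417 CPM.

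Fbln5, the fibulin that tethers elastin to cell-surface integrins, was at 7.07, 10.3 and 9.53 CPM in EMT6-P and at 8.86, 8.41 and 8.32 CPM in EMT6-PTR. All 3 resistant tumors lay within the parental range, and the log2 fold change was -0.07 ± 0.22 (SE), or 0.04 without EMT6-P replicate 2. The level in the metastasis was 24.7 CPM, above the 6 primary tumors.

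**Figure D1:**
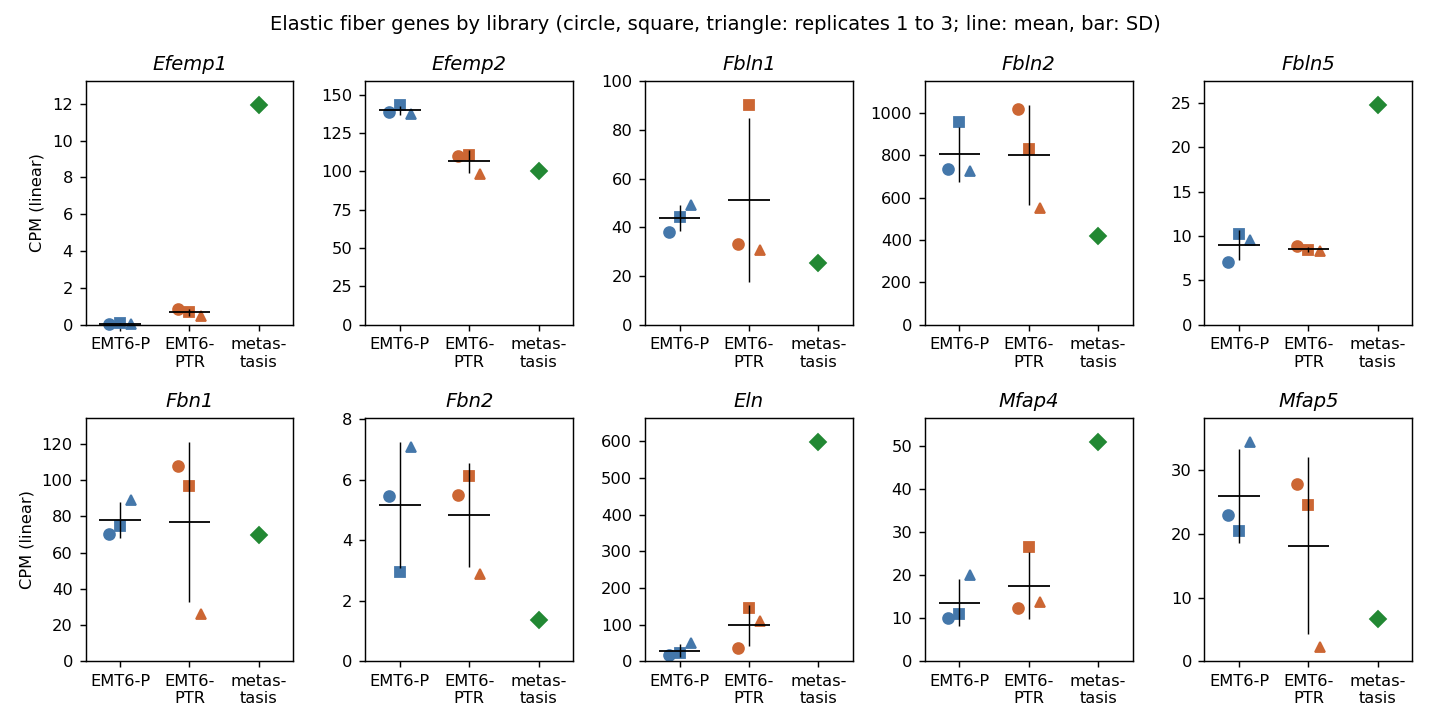
Level of each of the 10 elastic fiber genes in every library, in CPM on a linear axis, for 3 tumors of each primary group and 1 metastasis (circle, square and triangle for replicates 1 to 3, diamond for the metastasis; line, mean; bar, SD). Efemp1 and Efemp2 are the members whose primary tumor groups do not overlap, and Efemp1, Fbln5, Eln and Mfap4 are highest in the metastasis.

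The fibrillins form the microfibril backbone. Fbn1, the main fibrillin of adult tissue, was at 70.1, 74.9 and 89.0 CPM in EMT6-P and at 108, 96.8 and 26.4 CPM in EMT6-PTR. Replicates 1 and 2 exceeded all parental tumors and replicate 3 was under all of them. The log2 fold change was -0.02 ± 0.48 (SE) and became 0.39 without EMT6-PTR replicate 3, and 0.09 when EMT6-P replicate 3 was left out. The metastasis had 69.5 CPM. Fbn2, the fibrillin of developing tissue, was at 5.46, 2.94 and 7.07 CPM in EMT6-P and at 5.50, 6.13 and 2.89 CPM in EMT6-PTR. These groups overlapped almost fully, and the log2 fold change of -0.09 ± 0.43 (SE) turned to 0.20 when EMT6-P replicate 3 was left out and to 0.17 when EMT6-PTR replicate 3 was. The metastasis held 1.36 CPM, the lowest value of Fbn2 in any library.

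Eln encodes tropoelastin, the soluble precursor of the elastic core. It was at 16.2, 21.6 and 51.2 CPM in EMT6-P and at 37.6, 146 and 111 CPM in EMT6-PTR. EMT6-PTR replicates 2 and 3 were above all parental tumors, and replicate 1 fell below EMT6-P replicate 3, so the groups overlapped. The fit gave a log2 fold change of 1.73 ± 0.62 (SE, n = 3 per group). Leaving out EMT6-P replicate 3 gave 2.38 and leaving out EMT6-PTR replicate 2 gave 1.33, and the value was positive whichever tumor was left out. The metastasis had 597 CPM, a ratio of 6.07 to the mean of the resistant tumors. Eln spans chr5:134702593-134747323.

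Mfap4 and Mfap5 are glycoproteins bound to microfibrils, and Mfap4 is also known as a helper of elastic fiber assembly in the lung and skin. Mfap4 was at 9.99, 10.9 and 19.95 CPM in EMT6-P and at 12.3, 26.5 and 13.8 CPM in EMT6-PTR. Replicate 2 alone passed the parental range. Its log2 fold change was 0.36 ± 0.40 (SE) and -0.06 without EMT6-PTR replicate 2. The metastasis had 50.8 CPM. Mfap4 overlaps Mapk7 on the opposite strand, which held 571 to 921 estimated counts per library. Mfap5 was at 23.0, 20.4 and 34.4 CPM in EMT6-P and at 27.8, 24.5 and 2.23 CPM in EMT6-PTR. Replicates 1 and 2 were inside the parental range and replicate 3 was far under it. The fitted log2 difference was -0.52 ± 0.79 (SE), 0.01 without EMT6-PTR replicate 3 and -1.24 under limma-voom. The metastasis, with 6.67 CPM, lay between replicate 3 and the other tumors.

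Across the table, the quasi-likelihood test of edgeR, adjusted by Benjamini-Hochberg, called 0 of 15645 genes (0%) between EMT6-PTR and EMT6-P, where called means an adjusted p under 0.05. The smallest adjusted p was 0.421, with 1786 genes under an unadjusted 0.05. DESeq2 called 281 genes (1.8%), 138 higher and 143 lower, and limma-voom called 0. Neither edgeR nor limma-voom called a member. DESeq2 gave an adjusted p to 13694 genes and to 9 of the 10 members, called none of these 9, and gave none to Efemp1. In the edgeR fit 2 members, Efemp1 and Eln, lay 2-fold or more above EMT6-P, against 6.27% of all genes, and 0 lay 2-fold or more below, against 1.29%. The groups did not overlap for 1 member that was higher (Efemp1), against 9.52% of all genes, and for 1 that was lower (Efemp2), against 11.8%. The median log2 fold change was -0.01 over the members and 0.03 over all genes tested, with 4 members above 0 and 6 below. These counts describe members that were listed with the contrast known.

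Taken tumor by tumor, the members did not all move one way. EMT6-PTR replicate 1 exceeded every parental tumor for 3 members (Efemp1, Fbln2 and Fbn1) and was under every one for 2 (Efemp2 and Fbln1). Replicate 2 was above for 5 (Efemp1, Fbln1, Fbn1, Eln and Mfap4) and below for Efemp2. Replicate 3 was above for 2 (Efemp1 and Eln) and below for 6. The corresponding shares of all genes were 32.6% above and 32.5% below in replicate 1, 33.8% and 38.1% in replicate 2, and 39.8% and 42.7% in replicate 3. In replicate 3 the low members included Fbn1, Mfap5 and Fbn2, in the same library in which the summed smooth muscle and pericyte markers were lowest and the summed fibroblast markers highest, the latter without Thy1, Dpt and Col1a1. The part of that library's cell content in these values was not tested. In bulk tissue, fewer cells of a type and less RNA per cell cannot be told apart.

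**Figure D2:**
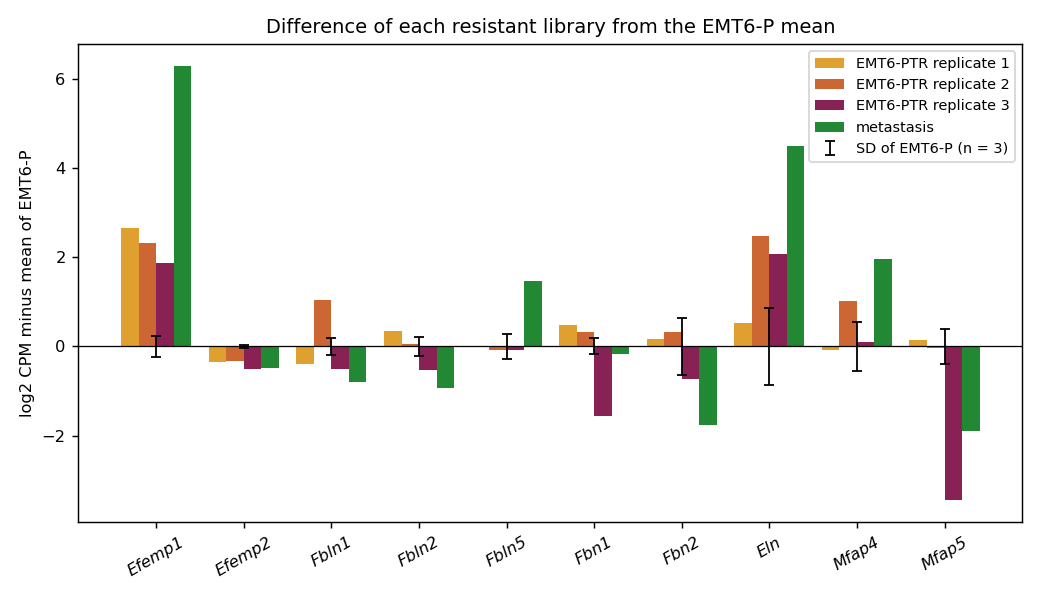
Difference in log2 CPM (prior count of 2) between each resistant library and the mean of the 3 EMT6-P tumors, for each member, with bars by library and a whisker of 1 SD of the EMT6-P tumors (n = 3) around 0. The 3 EMT6-PTR bars point the same way for Efemp1, Efemp2 and Eln, replicate 3 is far below 0 for Fbn1 (-1.55), and both replicate 3 (-3.45) and the metastasis (-1.91) are far below 0 for Mfap5.

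Abundance was compared between members after dividing CPM by the exon length of each gene in kilobases, which gives CPM per kb. In EMT6-P, Fbln2 led with a mean of 126.6 CPM per kb, followed by Efemp2 with 36.9 CPM per kb, and the ranges of these genes did not touch. Next came Fbln1, Mfap5, Mfap4, Fbn1 and Eln with means from 10.0 down to 3.67 CPM per kb, and each of these overlapped its neighbor in the order. Fbln5 at 1.296, Fbn2 at 0.390 and Efemp1 at 0.0310 CPM per kb closed the order without overlap. In EMT6-PTR, Fbln2 (125.8 CPM per kb) and Efemp2 (28.1 CPM per kb) again came first. Eln held the next place with 12.2 CPM per kb, over a range of 4.64 to 18.1 CPM per kb that overlapped Fbln1.

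In the metastasis the order differed. Eln came first with 73.8 CPM per kb, ahead of Fbln2 with 65.5 CPM per kb. Efemp2 and Mfap4 followed, each at 26.4 CPM per kb, and Efemp1 reached 5.85 CPM per kb. The sum over the 10 members was 182 to 219.9 CPM per kb in EMT6-P and 215 CPM per kb in the metastasis. It was 226 and 229 CPM per kb in EMT6-PTR replicates 1 and 2 and 145 CPM per kb in replicate 3. Eln made up 1.10% to 3.20% of that sum in EMT6-P, 2.05%, 7.89% and 9.49% in EMT6-PTR replicates 1 to 3 and 34.3% in the metastasis. Fbln2 made up 57.9% to 68.2%, 57.0% to 70.7% and 30.5%. With 1 metastasis these differences have no replicate check.

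**Figure D3:**
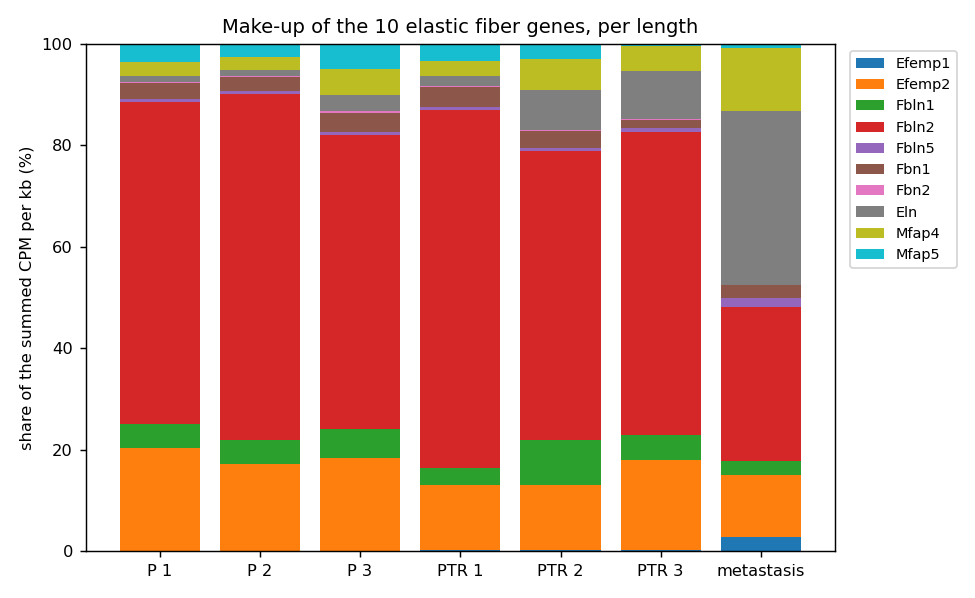
Share of each member in the summed CPM per kb of the 10 members, in percent, in each of the 7 libraries. Fbln2 fills at least 57.0% of the bar in every primary tumor and 30.5% in the metastasis, where Eln fills 34.3%.

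Set against the mean of the resistant tumors, the metastasis was 2-fold or more above for 4 members, against 10.6% of all genes tested, and 2-fold or more below for 3, against 11.1%. The 15645 genes tested were filtered on the primary tumors alone. Genes read mainly in the metastasis, such as Sftpc and Scgb1a1, are therefore outside these shares. Those higher were Efemp1 (ratio of 17.8), Eln (6.07), Mfap4 (2.90) and Fbln5 (2.90). Those lower were Fbn2 (0.281), Mfap5 (0.367) and Fbln1 (0.492). The Fbln1 ratio was 0.793 without EMT6-PTR replicate 2. Leaving out EMT6-PTR replicate 3 brought Fbln2 from 0.521 to 0.451, so that 4 members were 2-fold or more below. The median ratio of the members was 0.922, beside 0.953 over all genes tested. For all 10 members the metastasis was outside the EMT6-P range, above it for the same 4 that led the ratios and below it for 6. The metastasis was above that range for 39.8% and below it for 43.2% of all genes tested, so most of them lay outside it.

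Cell type markers also differed between the metastasis and the primary tumors. All 8 lung epithelium markers were detected in the metastasis, and their sum was 8665 CPM against 4.25 to 6.14 CPM in EMT6-P and 7.46 to 27.1 CPM in EMT6-PTR. Sftpc, Sftpa1 and Sftpd, genes of surfactant proteins, were at 0 in all 3 EMT6-PTR tumors, although the labels give breast tumor tissue as the source of every library. Endothelium markers summed to 858 CPM in the metastasis, 117 to 143 CPM in EMT6-P and 121 to 163 CPM in EMT6-PTR, although Emcn was at its lowest there (8.51 CPM). Fibroblast markers summed to 13301 CPM in the metastasis, and Col3a1 (6617 CPM) was the largest part. Within that list Col1a1 (2212 CPM) and Thy1 (6.47 CPM) were lower in the metastasis than in any primary tumor, and Dpt (16.5 CPM) was higher. Mammary carcinoma markers summed to 3465 CPM there, against 5458 to 6712 CPM in the primary tumors other than EMT6-PTR replicate 3 with 2825 CPM. Within the carcinoma list Vim, Krt8 and Krt18 set the sum, whereas Krt19 (172 CPM), Cdh1 (138 CPM) and Epcam (52.2 CPM) were at their highest in the metastasis. Smooth muscle and pericyte markers summed to 183 CPM in the metastasis, where Acta2 was at 67.8 CPM and Myh11 (13.6 CPM) and Cnn1 (6.71 CPM) were higher than in any primary tumor. The part of these cells in the levels of Eln, Efemp1, Mfap4 and Fbln5 was not tested.

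**Figure D4:**
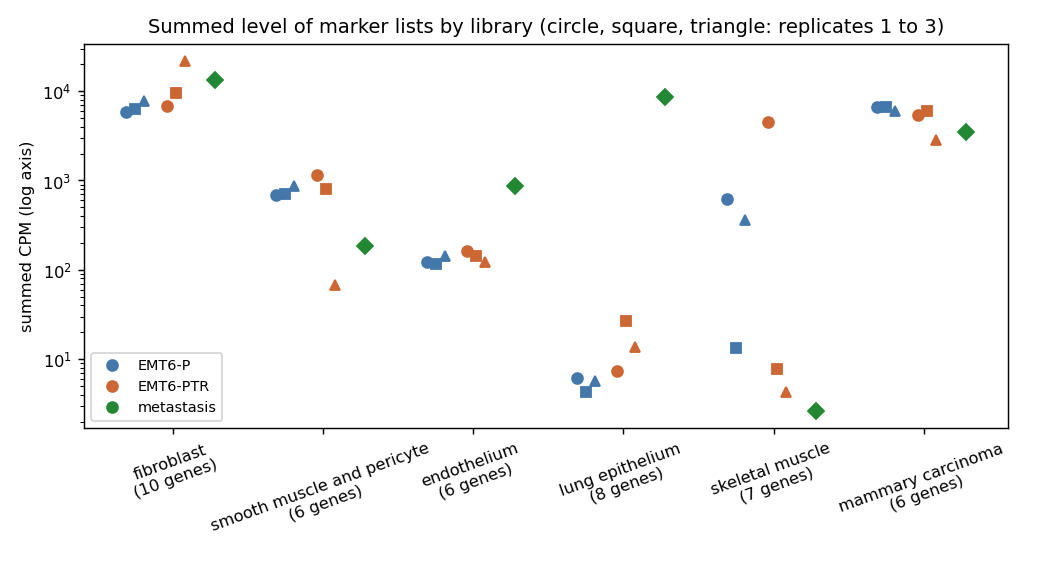
Summed CPM of 6 marker lists in each library on a log axis (circle, square and triangle for replicates 1 to 3, diamond for the metastasis). Lung epithelium markers reach 8665 CPM in the metastasis and no more than 27.1 CPM in any primary tumor, and EMT6-PTR replicate 3 has the highest fibroblast sum (21498 CPM).

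The genes nearest to each member were taken as those with the smallest root mean square difference in log2 CPM over the 7 libraries, each gene centered on its own mean. Efemp2 had the closest neighbors, Gtf2f1, Prelid1 and Maea, at 0.0388 to 0.0477. For Fbln2 they were Gm10052, Mov10 and Tsc22d2 (0.0767 to 0.0917), and for Fbln5 Stx11, the endothelial diaphragm gene Plvap and the lymphatic receptor gene Flt4 (0.121 to 0.159). Fbn1 lay nearest to the integrin gene Itgb3, the basement membrane gene Nid1 and Gpr65 (0.141 to 0.145). Itgb3 followed Fbn1 down to 17.6 CPM in EMT6-PTR replicate 3 from 74.97 and 76.4 CPM in the other resistant tumors. Fbln1 lay nearest to Vcl, Rem2 and Myl9 (0.189 to 0.206), all high in EMT6-PTR replicate 2. Fbn2 was matched by Mybl1, Gm4631 and BE692007 (0.191 to 0.224), Mfap4 by Cd4, Ano1 and Entpd5 (0.209 to 0.256) and Mfap5 by Rph3a, A330009N23Rik and Fam111a (0.194 to 0.268). Neighbors of Eln and Efemp1 were more distant. Those of Eln included Atp6v0a4 (0.448) and Clca3a1 (0.527), and those of Efemp1 were Ccdc85a, Sema3e and Scn7a (0.598 to 0.648). These distances describe 7 libraries that differ in cell content, and carry no test.

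Other genes of the elastic fiber were taken from a list of 45, of which 41 passed the filter. Of the 41, edgeR called 0, with 8 under an unadjusted 0.05 against 11.4% of all genes. Limma-voom called 0 and DESeq2, which gave 1 of the 41 no adjusted p, called 3 (Adamtsl5, Lox and Prtn3), against 1.8% of all genes. By direction, 22 were above 0 and 19 below, and differences of 2-fold or more were found for 7 that were higher, against 6.27% of all genes, and 0 that were lower, against 1.29%. The tumor groups did not overlap for 7 that were higher and 3 that were lower, against 9.52% and 11.8% of all genes. Their median log2 fold change was 0.07. Emilin3, Adamts17, Mmp7 and Elane were not tested.

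Among 18 tested genes of microfibril and fiber assembly, Adamtsl5, whose product binds fibrillin microfibrils, was at 14.8, 13.8 and 14.0 CPM in EMT6-P and at 29.5, 28.1 and 36.1 CPM in EMT6-PTR. The groups were well apart. The log2 fold change was 1.14 ± 0.15 (SE), with an adjusted p of 0.421 in edgeR's quasi-likelihood test and 8.01e-07 in DESeq2. Hmcn2 had a log2 fold change of 0.73 ± 0.22 (SE) and Adamts10, a protease that acts on microfibrils, 0.84 ± 0.27 (SE), and neither was called by edgeR or DESeq2. Of the 18, 14 were above 0, against 52.3% of all genes. In the other lists fewer were, with 2 of 5 elastin crosslinking genes, 2 of 8 integrin genes, 3 of 7 proteases and 1 of 3 TGF-β ligands above 0.

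Lox, the enzyme that crosslinks elastin and collagen, was at 138, 144 and 142 CPM in EMT6-P and at 218, 408 and 452 CPM in EMT6-PTR. No resistant tumor overlapped the parental ones. Its log2 fold change was 1.35 ± 0.28 (SE), with an adjusted p of 0.421 in edgeR's quasi-likelihood test and 0.00266 in DESeq2. Lox stood at 279.9 CPM in the metastasis. Of the other lysyl oxidase genes, Loxl4 was at -0.74 ± 0.32 (SE) with every resistant tumor below the parental ones, and Loxl1 was at -0.08 ± 0.26 (SE), or at 0.06 when EMT6-P replicate 2 was left out and 0.13 when EMT6-PTR replicate 2 was.

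Of the 8 fiber-binding integrin genes, Itgb8, a subunit that activates latent TGF-β, had a log2 fold change of 1.34 ± 0.53 (SE) with overlapping groups. Itgb5 was at -0.37 ± 0.16 (SE) with groups apart, and Itgb1 at -0.39 ± 0.19 (SE). In the 7 tested elastin-degrading proteases, Prtn3 had a log2 fold change of 3.85 ± 1.33 (SE), called by DESeq2 with an adjusted p of 0.0374, and it was 1.48 without EMT6-PTR replicate 3, 2.79 with a replicate block and 2.69 under limma-voom. That tumor held 13.4 CPM against 0.187 to 1.62 CPM in the other primary tumors. Mmp2, a gelatinase, was at 1.80 ± 0.81 (SE), and at 0.24 without EMT6-PTR replicate 3, 1.12 with a replicate block and 1.15 under limma-voom. Mmp12, the macrophage elastase, was at -0.97 ± 0.64 (SE) and at -1.62 without EMT6-PTR replicate 2. Among the TGF-β ligands, Tgfb3 was at 0.51 ± 0.19 (SE) with groups apart, Tgfb2 at -0.89 ± 0.48 (SE), or -1.55 without EMT6-PTR replicate 1, and Tgfb1 at -0.14 ± 0.14 (SE). EdgeR called none of these.

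**Figure D5:**
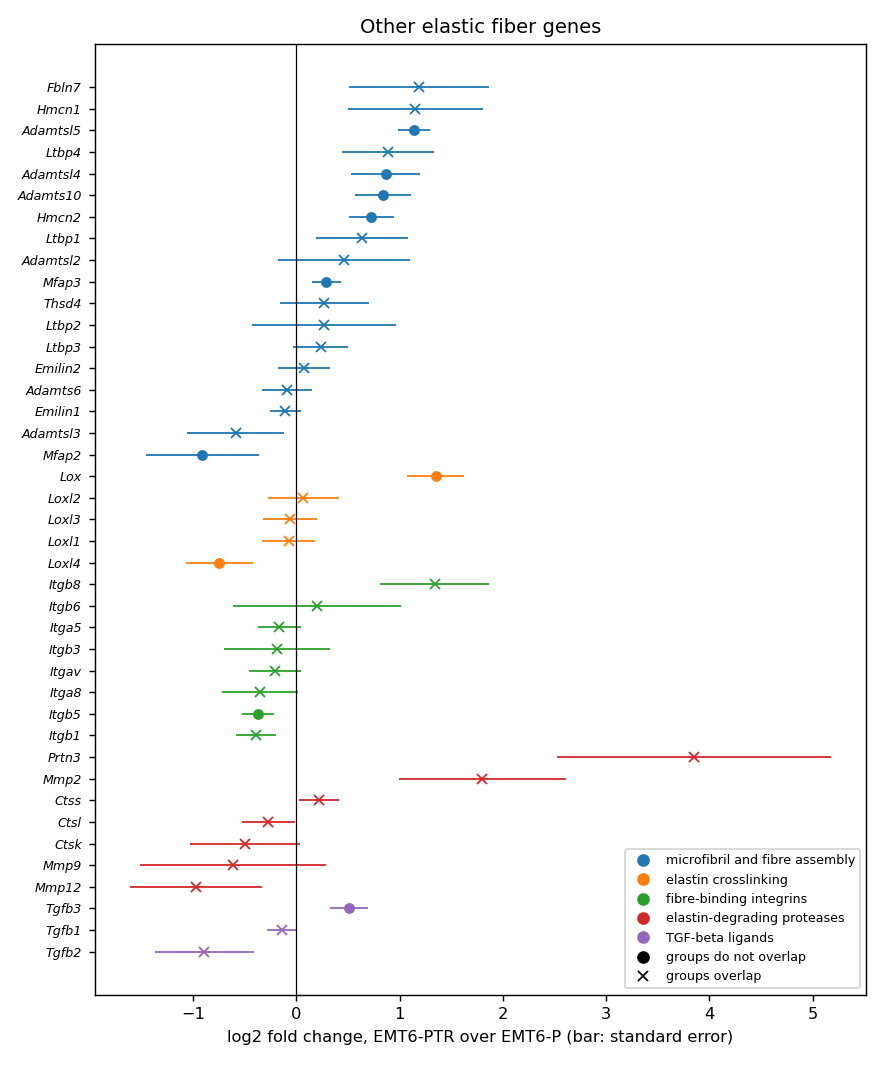
Log2 fold change of EMT6-PTR over EMT6-P (bar, SE) for the 41 tested genes of the wider elastic fiber list, colored by list, with dots where the 3 tumors of each group do not overlap and crosses where they do. Adamtsl5 (1.14) and Lox (1.35) combine groups apart with at least 2-fold, and Prtn3 (3.85) has the widest error bar.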

How the data were processed

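RNA of 7 libraries was measured, 3 of EMT6-P tumors, 3 of EMT6-PTR tumors and 1 of a metastasis, each replicate number being taken from the sample titles. The deposited values are estimated counts per gene that the authors obtained with RSEM 1.3.1 after STAR 2.6.0a alignment to GRCm38 with the GENCODE M16 annotation, on stranded polyadenylated libraries checked with FastQC 0.11.5, as their methods and the submitters' processing notes say. RSEM splits reads shared by near-identical genes by estimation. The table precedes filtering and scaling. Totals of 20430110 to 25213472 set the counting error, to which spread between tumors adds, and a gene at 0 could hold up to 3 counts.

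Here, counts were rounded to whole numbers and 53274 of 53465 identifiers were matched to a gene symbol. Gene positions and exons came from GENCODE M21 of the same assembly. Primary tumors were compared with edgeR 4.0.16 (filterByExpr, upper-quartile factors, glmQLFit and glmQLFTest) in R 4.3.3, adjusted over all 15645 genes tested with a threshold of 0.05. The metastasis stayed out of the fit. A standard error is the log2 fold change divided by the square root of F. Exon length is the union of a gene's exons. Log2 CPM used a prior count of 2, and Efemp1 ratios carry exact 95% intervals. Upstream windows come from RefSeq and were searched on both strands, taking for each gene the start nearest to the GENCODE start. A match at the same bases on both strands counted once.

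Members and lists were chosen with earlier results of these data known. Named were all 10 members, up to 3 genes per elastic fiber list with the smallest unadjusted p, any with groups apart and at least a 2-fold change, and the 3 genes nearest to each member, of which 1 is not reported here. Marker lists for 11 cell types were summed, of which 6 are described beside the results and 5 in the closing section. Alternatives were TMM factors, DESeq2 1.42.0, limma-voom (limma 3.58.1), no filter, at least 10 counts in every tumor, the metastasis as an added group, a block for the replicate number, and fits without each tumor in turn. Fits were tested on simulated counts. Tables were made with pandas 2.3.3 under Python 3.11.15 and plots with matplotlib 3.10.9.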

Additional observations from a re-analysis of the deposited data

How the results depend on the processing

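The fit across all genes called 0 genes under TMM factors, limma-voom, no filter, at least 10 counts in every tumor, the metastasis as an added group and each left-out tumor, whereas DESeq2 called 281, of which 3 were other elastic fiber genes (Adamtsl5, Lox and Prtn3) and 0 were among the 9 members with an adjusted p, Efemp1 having none. Leaving out a tumor gave 0 to 0 genes called. Under these tools the members that lay 2-fold or more higher numbered 2, except 1 when at least 10 counts were required, which left Efemp1 out of the test. They ranged from 1 to 2 on leaving out a tumor, with 1 without EMT6-PTR replicate 1, where Efemp1 again did not pass the filter. Under limma-voom 1 member, Mfap5, was 2-fold or more lower, and the cause was not tested. These 2-fold counts were added after the data were seen.

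Fbln2, near 0 in every fit, was at 0.0081 under TMM factors, 0.011 under DESeq2 and 0.010 with at least 10 counts. With each tumor left out, log2 fold changes ran from -0.46 to 0.49 for Fbln1, -0.22 to 0.20 for Fbln2, -0.21 to 0.038 for Fbln5, -0.35 to 0.39 for Fbn1, -0.38 to 0.20 for Fbn2, -0.061 to 0.74 for Mfap4, -0.97 to 0.0098 for Mfap5 and -0.27 to 0.13 for Loxl1. In all, leaving out that missing value, 303 recomputed values kept their direction and call, 15 changed sign and 3 passed the threshold.

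Replicate numbers were shared by both groups. The deviations of tumors with the same number correlated at 0.259, 0.253 and 0.0384, and those of tumors with different numbers at -0.286 to 0.0979. For replicates 1 and 2 the same-number value was the highest. EMT6-P replicate 3 lay closer to EMT6-PTR replicate 1 (0.0979). The labels give nothing that the replicate numbers share, so the main fit did not pair the tumors. With the number as a replicate block 0 genes were called, 1268 were under an unadjusted 0.05, and the members 2-fold or more higher numbered 2. The block gave 1.69 for Eln and -0.40 for Efemp2. The 3 tumors per group and 1 metastasis limit what could be called, and Efemp1, at 1 to 20 counts per tumor, was near the depth limit.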

Other observations

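The marker lists not described beside the results also varied among the libraries. Leukocyte markers summed to 559 to 624 CPM in EMT6-P, 732, 659.7 and 394 CPM in EMT6-PTR replicates 1 to 3 and 519.5 CPM in the metastasis. Keratinocyte markers summed to 318 to 563 CPM in EMT6-P, 514, 199 and 20.6 CPM in EMT6-PTR and 36.4 CPM in the metastasis. Krt14 was the largest part of that sum in every library, with 316 to 524 CPM in EMT6-P. Krt1 was at 0 in every EMT6-PTR tumor and in the metastasis. Tendon and cartilage markers reached 1055 CPM in EMT6-PTR replicate 3, against 245 CPM in replicate 2, 61.9 CPM in replicate 1, 46.9 to 95.4 CPM in EMT6-P and 159 CPM in the metastasis. In replicate 3 that sum came mainly from Col11a1 (765 CPM) and Fmod (256 CPM). Scx, of the same list, went the other way, at 11.4 CPM in replicate 3 against 26.1 to 51.5 CPM in the other primary tumors. Tnmd and Acan were at 0 in replicate 3 and at or near 0 in every other library. Adipocyte markers summed to 222 CPM in EMT6-PTR replicate 1, 11.2 to 30.8 CPM in the other primary tumors and 14.7 CPM in the metastasis. In EMT6-PTR replicate 1 that sum came mainly from Car3 (192 CPM). Adipoq was at 0.0873 CPM there, and Plin1 and Cidec were at 0. Mesothelium markers summed to 162 to 208 CPM in EMT6-P, 138 to 372 CPM in EMT6-PTR and 323 CPM in the metastasis. In every primary tumor that sum was nearly all Msln. Upk3b (32.0 CPM), Lrrn4 (10.6 CPM) and Wt1 (6.27 CPM) were at their highest in the metastasis. Skeletal muscle markers were at 2.64 CPM in the metastasis.

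Of the 41 other elastic fiber genes tested, 7 were 2-fold or more above the mean of the resistant tumors in the metastasis and 9 were 2-fold or more below. The shares of all genes tested, which were filtered on the primary tumors alone, were 10.6% and 11.1%. The median ratio of the 41 was 0.828. The highest ratios, named after their values were seen, were those of Itgb6 (24.2), Adamtsl2 (20.6) and Itga8 (5.28). The lowest were those of Fbln7 (0.0561), Ltbp2 (0.245) and Itgb8 (0.286). This rests on 1 library with lung epithelium markers at 8665 CPM, and the part of those cells was not tested.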
